A study of Mus musculus with 36 samples.

Results

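Gene expression at day 2 of fat cell induction was compared between 3T3-L1 libraries labelled Zfp217 knockout (KO) and libraries labelled wild type (WT). 3T3-L1 is a mouse fibroblast line that can be turned into fat cells in culture. Of the 36 samples in the series, 12 were RNA-seq libraries, and the 6 of day 2 (3 WT and 3 KO) enter this comparison. The genes described are the 12664, of 52505 in the table, whose mean over these 6 libraries was at least 1 FPKM (fragments per kilobase of transcript, scaled to the mapped fragments of the library). Just below that minimum were Prokr1 (mean 0.999 FPKM) and Kif5c (0.999), and just above it was Pcdhb20 (1.00). Both day 2 groups were grown in serum medium and given the same cocktail, which the labels list as DEX, isobutyl-methylxanthine, insulin and indometacin, and they differ by genotype label only. The WT and KO groups of day 0 again have 3 libraries each and the same medium and treatment in their labels. They serve to ask whether the difference at day 2 was already there at day 0. Their spread also enters the estimate of variation behind the adjusted p-values of day 2. The labels do not say how Zfp217 was disrupted or whether the KO cells descend from 1 clone. Nor do they say that replicate libraries are separate cultures, and every p-value below covers just the variation among these libraries, which may be technical.

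Fat cell formation in this line follows a known order. The hormone cocktail switches on Cebpb and Cebpd, the cells go through a few rounds of division, and Pparg and Cebpa then drive each other and the genes of fat storage. Zfp217 encodes a zinc finger protein known from repressor complexes with CtBP, CoREST and the demethylase Kdm1a, and the title of the series links it to m6A, a methyl mark on mRNA.

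The Zfp217 message itself did not fall in the libraries labelled KO. It stood at 14.6, 15.3 and 15.3 FPKM in the WT libraries and 21.7, 23.4 and 22.7 in the KO libraries. Every KO library was thus above every WT library. The difference was 1.5-fold on the means and 0.55 ± 0.0358 (SE) in log2(FPKM + 1), with an exact two-sided permutation p of 0.1, the smallest that 3 against 3 libraries can give. A frameshift can leave the message in place, and the table holds no reads by exon, so this level checks neither the labels nor the protein. Directions below are therefore those between libraries as labelled. The 6 libraries held between 19046519 and 23117459 reads recovered from the deposited values. Libraries of the same genotype correlated at 0.994 to 0.995 over the tested genes in log2(FPKM + 1), and libraries of different genotype at 0.873 to 0.876. Among 9359 genes of at least 5 FPKM, between 4 and 14 per library lay more than 2-fold from both other libraries of their group. These were mostly ribosomal pseudogenes, short RNAs and mitochondrial genes, and Gapdh, Idi1, Sumo2 and Rpl17 were among them. Of the 8 listed fat cell markers 7 were tested, 2 of which reached 1 FPKM in WT only, and the other 5 were lower in KO. Of the 8 listed fibroblast or preadipocyte markers 7 were tested, and 7 were higher in KO. The 30 listed endothelial, skeletal muscle, neural and epithelial markers all stayed under the minimum, while 3 of 9 listed macrophage, 2 of 7 osteoblast, 3 of 8 chondrocyte, 2 of 8 pericyte and 3 of 8 brown fat markers reached it.

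At day 2 the KO libraries lacked most of the message for fat storage, held less of that for the nuclear genes of mitochondria and for cell division, and held more of that for collagen matrix, growth factors and chemokines. By limma on log2(FPKM + 1) with Benjamini-Hochberg adjustment over all 12664 genes, 10334 (81.6%) passed an adjusted p of 0.05. In KO 5050 (39.9%) were higher and 5284 (41.7%) were lower, a balance that turned with TPM scaling (5300 and 4998), and the words higher and lower below are kept for genes that passed. With so many genes past the threshold, a list in which most members passed is the usual case, and the direction and size of the change carry the description. The median difference (KO minus WT) over all tested genes was -0.02 and the median size of a difference 0.52 in log2(FPKM + 1). A difference of at least 2-fold on that scale was found for 1643 genes (13.0%) higher in KO and 1517 (12%) lower, and one of at least 4-fold for 443 and 251. In 10419 genes (82.3%) the 3 KO values did not overlap the 3 WT values, all lying above WT in 40.1% of genes and all below in 42.2%. All but 1068 of the tested genes averaged 1 FPKM or more in both genotypes. Of those 1068, which passed the minimum through 1 genotype and so had to differ, 678 were under 1 FPKM in WT and 390 in KO. Some of them are named below, with a mean under 1 FPKM in 1 genotype, and their differences are a description only.

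**Figure D1:**
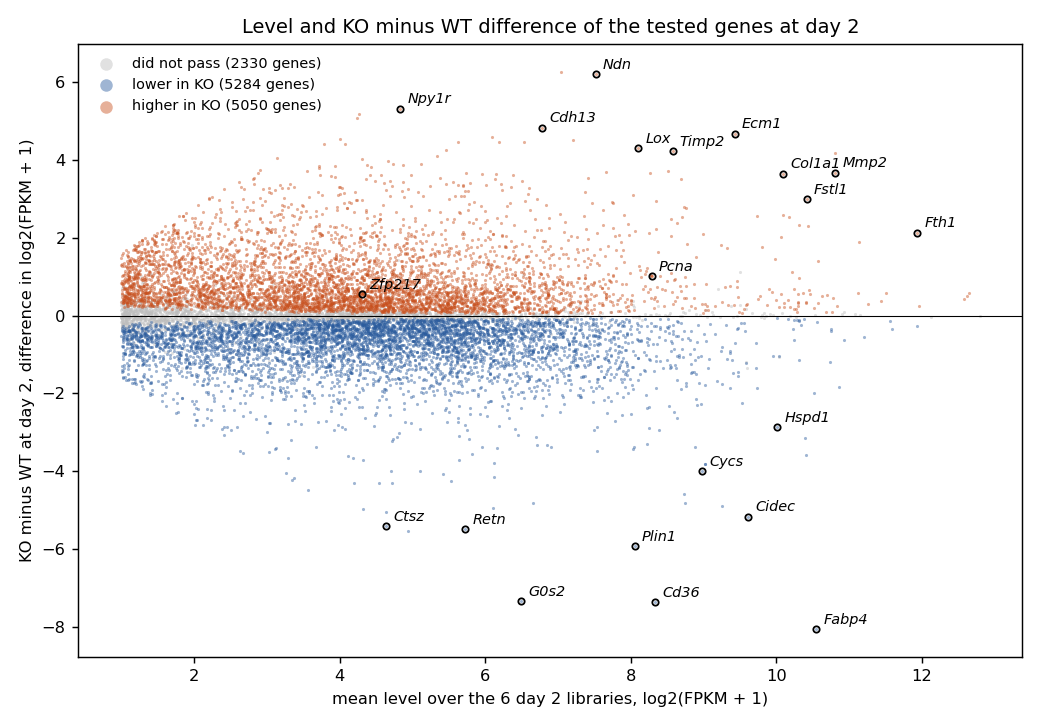
Mean level over the 6 day 2 libraries (x axis, log2(FPKM + 1)) and KO minus WT difference (y axis, same scale) of the 12664 tested genes, coloured by whether they passed the test. Fabp4, Cd36, G0s2 and Plin1 lie lowest, and Ndn and Npy1r are the labelled genes that lie highest.

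The promoters of the largest falls and rises are shown because these genes moved by the most in either direction. They are the 3 largest falls and 3 largest rises of the genes named below that RefSeq's promoter table (build GRCm38.p6) holds, as the 250 bases before the annotated start, 5′ to 3′ on the gene's strand. Capitals mark any match, on either strand, to TTGCNNAA (the C/EBP motif), AGGTCA (the core nuclear receptor site), TATAAA (the TATA box) or CCAAT (the CCAAT box). The windows are chr5:17835897-17836146, minus strand for Cd36, chr1:193273189-193273438, minus strand for G0s2, chr7:79732777-79733026, minus strand for Plin1, chr7:62348027-62348276, plus strand for Ndn, chr8:66697172-66697421, plus strand for Npy1r and chr1:107422439-107422688, plus strand for Serpinb7.
Cd36: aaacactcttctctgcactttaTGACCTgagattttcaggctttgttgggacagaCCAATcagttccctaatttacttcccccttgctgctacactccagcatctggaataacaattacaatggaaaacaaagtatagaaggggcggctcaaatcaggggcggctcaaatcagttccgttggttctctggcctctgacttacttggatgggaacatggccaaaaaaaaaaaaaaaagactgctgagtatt
G0s2: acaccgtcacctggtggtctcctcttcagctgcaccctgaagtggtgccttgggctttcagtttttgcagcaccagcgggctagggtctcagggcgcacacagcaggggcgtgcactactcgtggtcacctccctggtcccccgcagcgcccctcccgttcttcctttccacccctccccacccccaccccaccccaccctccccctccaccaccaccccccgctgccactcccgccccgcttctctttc
Plin1: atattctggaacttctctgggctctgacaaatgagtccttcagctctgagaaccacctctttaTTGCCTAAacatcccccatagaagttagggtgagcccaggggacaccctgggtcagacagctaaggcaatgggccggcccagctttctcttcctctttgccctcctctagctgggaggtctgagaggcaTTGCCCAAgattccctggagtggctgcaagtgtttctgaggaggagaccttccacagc
Ndn: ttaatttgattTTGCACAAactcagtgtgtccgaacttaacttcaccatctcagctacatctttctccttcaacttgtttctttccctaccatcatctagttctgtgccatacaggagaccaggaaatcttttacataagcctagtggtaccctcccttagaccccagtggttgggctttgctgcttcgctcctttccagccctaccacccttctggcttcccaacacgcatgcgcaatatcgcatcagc
Npy1r: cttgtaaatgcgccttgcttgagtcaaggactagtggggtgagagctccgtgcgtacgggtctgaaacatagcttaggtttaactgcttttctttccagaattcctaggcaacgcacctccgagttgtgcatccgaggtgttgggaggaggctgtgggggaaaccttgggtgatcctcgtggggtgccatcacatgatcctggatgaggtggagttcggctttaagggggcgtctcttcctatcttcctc
Serpinb7: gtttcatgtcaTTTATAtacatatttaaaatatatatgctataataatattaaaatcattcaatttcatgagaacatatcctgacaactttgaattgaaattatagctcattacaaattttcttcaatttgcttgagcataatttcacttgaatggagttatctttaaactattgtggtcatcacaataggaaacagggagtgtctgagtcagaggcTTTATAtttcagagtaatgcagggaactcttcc
Plin1 held 2 C/EBP motifs, whose first bases lie at -187 and -58 from the start, and Ndn held 1 at -239. Cd36 held 1 receptor site at -228 and 1 CCAAT box at -195, and Serpinb7 held 2 TATA boxes at -239 and -33. No match was found in the windows of G0s2 and Npy1r. Of all 32851 promoters in the table, 9.56% held TTGCNNAA, 14% AGGTCA, 12.4% TATAAA and 33.8% CCAAT in a window of the same length, so these matches are a description only.

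The largest falls were nearly all genes of the fat cell. Fabp4, the fatty acid carrier of fat cells, stood at 3066, 2927 and 2931 FPKM in the WT libraries and 9.85, 10.5 and 10.5 in the KO libraries. WT libraries held it among their 10 most abundant messages, and the lowest WT value was far above the highest KO value. The fatty acid transporter Cd36 stood at 643, 629 and 648 FPKM in WT and 3.15, 2.63 and 2.94 in KO, a 220.2-fold gap. G0s2, an inhibitor of the lipase Pnpla2, stood at 179, 178 and 179 FPKM in WT and 0.154, 0.121 and 0.0554 in KO, where the KO values rest on 6 reads in all. Plin1, which coats lipid droplets, stood at 526, 524 and 515 FPKM in WT and 7.45, 7.60 and 7.96 in KO. In each of these genes the gap between the groups was many times the spread within either group. The hormones and secreted proteins among the 12 were Adipoq (adiponectin), at 46.8, 48.0 and 46.5 FPKM in WT and 0.536, 0.459 and 0.422 in KO, and Retn (resistin), at 106, 102 and 99.5 FPKM in WT and 1.29, 1.15 and 1.53 in KO. Mrap, an accessory protein of melanocortin receptors, stood at 59.1, 57.6 and 60.4 FPKM in WT and 0.269, 0.253 and 0.349 in KO. Adig (adipogenin), a small membrane protein of fat cells, was 160.3-fold lower in KO. In bulk RNA, fewer fat cells and less message per fat cell cannot be told apart. The droplet protein Cidec was 36.7-fold lower, the carrier Fabp5 30.4-fold and Arxes2, a PPARG target with a near-identical copy (Arxes1), 39.8-fold. Ctsz, a lysosomal protease, is the 1 gene of the 12 that is not known as a fat cell gene. It stood at 49.7, 46.6 and 46.7 FPKM in WT and 0.186, 0.0729 and 0.167 in KO. Its difference was at least as large at day 0, with 62.3 ± 2.30 FPKM in WT and 0.0452 ± 0.0170 in KO. Of the other 11, Arxes2 and Fabp5 also passed as lower at day 0, and 9 did not pass there. Apart from Fabp4, those 9 were under 1 FPKM in both genotypes at day 0, so a difference could hardly show there. Plin1, for example, was at 0.196 FPKM in WT and 0.262 in KO on day 0.

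The 12 largest rises were a mixed group of growth regulators, receptors and secreted proteins. Ndn (necdin), an imprinted growth suppressor, stood at 3.98, 4.09 and 3.71 FPKM in WT and 361, 357 and 363 in KO. Spread within either group was small. Npy1r, a receptor for neuropeptide Y, stood at 0.465, 0.271 and 0.455 FPKM in WT and 53.6, 55.0 and 54.7 in KO. Serpinb7, a protease inhibitor, stood at 0, 0 and 0.0858 FPKM in WT and 38.7, 34.8 and 35.6 in KO, and the WT values rest on 2 reads in all. Slc4a10, a bicarbonate transporter, was likewise near 0 in WT, with 0.0932 ± 0.0645 FPKM in WT and 35.6 ± 0.422 in KO. These 4 were at the edge of detection or low in WT and plainly expressed in KO. Cdh13 (T-cadherin), which binds adiponectin, was 32.4-fold higher at 6.53 ± 0.169 FPKM in WT and 211 ± 2.93 in KO. The matrix protein Ecm1 reached the highest level of the 12, 50.9, 52.0 and 50 FPKM in WT and 1311, 1306 and 1347 in KO. Gem, a small GTPase, was 29.4-fold higher, Lpcat2, a phospholipid acyltransferase, 89.3-fold, the lymphatic growth factor Vegfd 25.8-fold and the DNA sensor Aim2 28.2-fold. Ear1, a ribonuclease, and Orm3, an acute phase protein, belong to families of near-identical copies, so their split between copies is uncertain. Ear1 stood at 12.4, 13.6 and 8.77 FPKM in WT and 257, 253 and 336 in KO and Orm3 at 8.73, 6.14 and 6.73 FPKM in WT and 172, 176 and 181 in KO. At day 0 too, 11 of these 12 genes passed as higher in KO. The exception, Orm3, was under 1 FPKM in both genotypes there, as were most of the largest falls. Of the 24 genes, 9 were under 1 FPKM in 1 genotype and so had to differ to be tested. Over the other 15 the adjusted p by limma ran from 5e-17 to 1.6e-10.

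**Figure D2:**
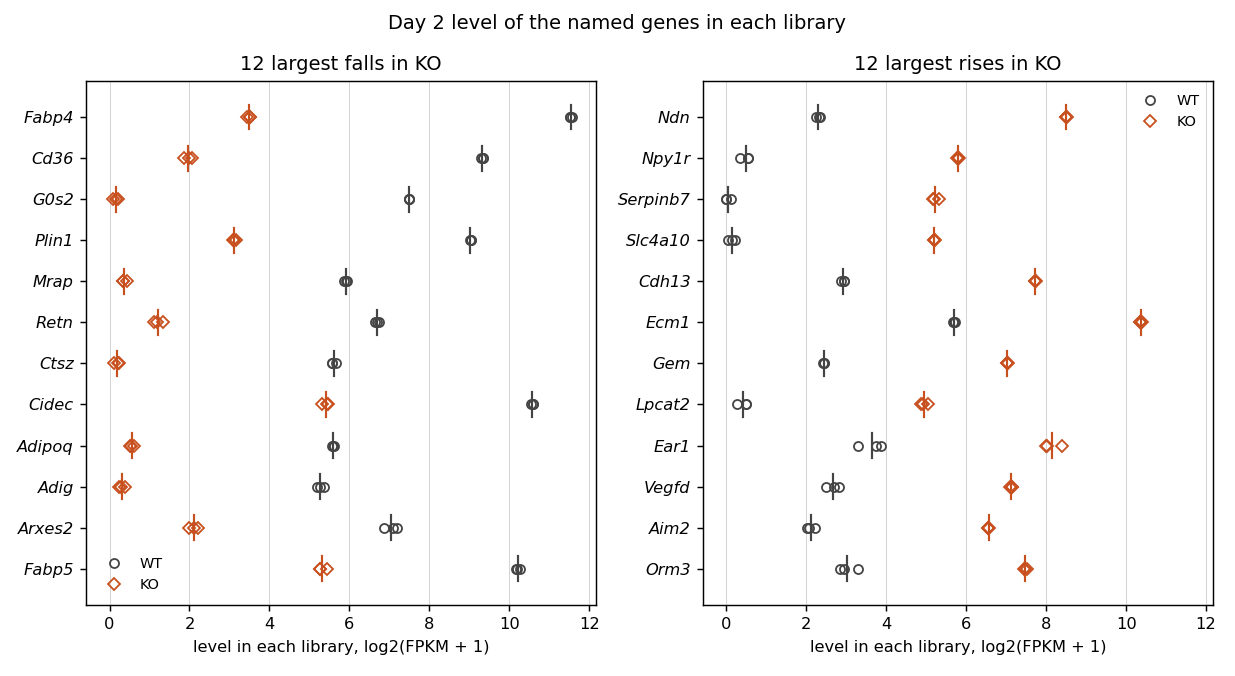
Level in each day 2 library, log2(FPKM + 1), of the 12 largest falls (left) and the 12 largest rises (right), with circles for WT, diamonds for KO and vertical bars for group means. These genes were chosen among those whose KO and WT values did not overlap, which held for 82.3% of all genes tested.

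The lower genes in KO spanned fatty acid uptake, triglyceride assembly, droplet coating and lipolysis. For uptake, the test covered 13 of the 15 listed genes, and 1 was higher in KO, 8 were lower and 4 did not pass. Lpl, the lipoprotein lipase that frees fatty acids for uptake, stood at 2423, 2404 and 2428 FPKM in WT and 266, 279 and 274 in KO, 8.87-fold lower. Acsl1, which couples fatty acids to CoA, stood at 2512 ± 14.8 FPKM in WT and 209 ± 5.96 in KO. Its relative Acsl5 went the other way, with 4.95 ± 0.278 FPKM in WT and 10.2 ± 0.665 in KO, and Acsl4 did not pass, with 24.7 ± 0.888 FPKM in WT and 24.5 ± 0.930 in KO. For triglyceride assembly, the test covered 15 of the 19 listed genes, 2 of which reached 1 FPKM in 1 genotype only. Among the other 13, 1 was higher in KO, 11 were lower and 1 did not pass. Dgat2, which adds the last fatty acid, was 24.7-fold lower at 814 ± 16.2 FPKM in WT and 33.0 ± 1.89 in KO. Agpat2, which adds the second fatty acid, was 10.5-fold lower and the most abundant of the list, at 863 ± 6.67 FPKM in WT and 81.9 ± 2.14 in KO. Pck1, which makes glycerol backbone from pyruvate products, was at 0 in all 3 KO libraries against 6.05 ± 0.780 FPKM in WT, at least 230.1-fold lower when 3 reads over the group are taken as the floor. Within the Agpat family the picture was split, since Agpat4 was 2.77-fold higher in KO, at 43.7 ± 1.42 FPKM in WT and 121 ± 1.51 in KO, and Agpat5 stood at 7.10 ± 0.174 FPKM in WT and 6.96 ± 0.460 in KO, which did not pass.

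Droplet proteins and lipases followed. For droplet proteins, the test covered 8 of the 12 listed genes, and 1 was higher in KO and 7 were lower. Plin2, which coats droplets in most cell types, was still present in KO, at 803 ± 13.8 FPKM in WT and 234 ± 2.15 in KO. Plin3, a coat protein of small nascent droplets, was the 1 higher member, at 21.8 ± 0.358 FPKM in WT and 43.7 ± 1.65 in KO. For lipolysis, the test covered 8 of the 12 listed genes, 1 of which reached 1 FPKM in 1 genotype only. Among the other 7, 7 were lower in KO. Pnpla2, the first lipase of triglyceride breakdown, was the most abundant and 2.19-fold lower, while Lipe, the hormone-sensitive lipase, was 11.5-fold lower, at 340.2 ± 7.04 FPKM in WT and 29.7 ± 0.943 in KO. Most secreted fat cell proteins were lower in KO. The test covered 11 of the 15 listed genes, 5 of which reached 1 FPKM in 1 genotype only. Among the other 6, 1 was higher in KO, 4 were lower and 1 did not pass. Angptl4, a circulating inhibitor of Lpl, was the most abundant, at 549.7 ± 0.769 FPKM in WT and 226 ± 4.28 in KO. Metrnl (meteorin-like) stood at 21.1 ± 1.69 FPKM in WT and 34.6 ± 3.28 in KO, and Apln (apelin) did not pass, at 3.66 ± 0.115 FPKM in WT and 3.36 ± 0.214 in KO. The median difference was -2.14 in log2(FPKM + 1) for triglyceride assembly, -1.87 for droplet proteins, -1.05 for lipolysis and -0.37 for uptake, beside -0.02 for all genes tested. The medians of triglyceride assembly and lipolysis hold genes that reached 1 FPKM in 1 genotype only, and without them that of triglyceride assembly was -1.34.

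The transcription factors of fat cell formation showed no common direction as a list. Cebpd, an early factor that the cocktail induces, was 3.89-fold higher in KO and stood at 56.7, 58.5 and 56.2 FPKM in WT and 237, 214 and 215 in KO. Cebpb, its early partner, did not pass and stood at 252, 276 and 259.8 FPKM in WT and 289, 248 and 234 in KO, with the KO range enclosing the WT range. The late factors Pparg, at 154, 146 and 150.4 FPKM in WT and 34.7, 33.6 and 32.7 in KO, and Cebpa, at 180.3, 192 and 186 FPKM in WT and 32.5, 30.3 and 30.5 in KO, were 4.46-fold and 5.99-fold lower. No KO value of Pparg or Cebpa reached the WT range. Without the first KO library Cebpb passed as lower, by -0.12 in log2(FPKM + 1), and with quantile normalization it stood higher in KO, at 0.23. Ppargc1b, a coactivator of mitochondrial genes, had the largest fall of the list, 19.5-fold, and Nr1h3, the oxysterol receptor LXR alpha, was 6.88-fold lower. Rxra, the partner of PPARG, was not low, with 241 ± 3.03 FPKM in WT and 259.9 ± 1.78 in KO. The growth hormone and prolactin mediators Stat5a, at 67.5 ± 1.84 FPKM in WT and 188 ± 4.03 in KO, and Stat5b, at 22.6 ± 0.332 FPKM in WT and 52.4 ± 0.686 in KO, were 2.79-fold and 2.32-fold higher, as was Klf4, an early factor upstream of Cebpb, at 2.18-fold. The test covered 22 of the 25 listed genes, 2 of which reached 1 FPKM in 1 genotype only. Among the other 20, 8 were higher in KO, 9 were lower and 3 did not pass.

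Of the factors that hold back fat cell formation, more were higher in KO than lower. The test covered 23 of the 27 listed genes, 1 of which reached 1 FPKM in 1 genotype only. Among the other 22, 13 were higher in KO and 9 were lower, beside 39.9% higher and 41.7% lower of all genes tested. The share of lower members was thus about that of all genes. The median difference was 0.79 in log2(FPKM + 1), and 0.46 with no minimum level. Dlk1, the preadipocyte surface protein that blocks differentiation, stood at 68.7, 69.9 and 67.4 FPKM in the WT libraries and 302, 297 and 304 in the KO libraries, 4.39-fold higher. Trib2, a pseudokinase that promotes degradation of C/EBP proteins, was 4.63-fold higher, at 7.66 ± 0.629 FPKM in WT and 35.5 ± 1.16 in KO. The nuclear receptors Nr2f1 and Nr2f2 were 2.64-fold and 3.09-fold higher, Twist2 3.58-fold, Zfp521, which opposes Zfp423, 4.06-fold and Gata3 3.17-fold. The most abundant of the list, Ctnnb1 (beta-catenin), was 1.23-fold higher. The largest fall, in Trib3, and that of Ddit3 were of stress-induced genes, at 165 ± 1.06 FPKM in WT and 38.9 ± 1.85 in KO and at 227 ± 4.06 FPKM in WT and 110.3 ± 3.84 in KO. Preadipocyte surface markers were higher too. The test covered 15 of the 20 listed genes, 4 of which reached 1 FPKM in 1 genotype only. Among the other 11, 11 were higher in KO. Thy1 stood at 31.8, 32.8 and 31.4 FPKM in WT and 291, 298 and 305 in KO, 9.31-fold higher, and Pdgfra at 37.9 ± 1.65 FPKM in WT and 177 ± 2.82 in KO. The most abundant marker, Itgb1 (integrin beta 1), was 2.00-fold higher. Mcam, at 9.56 ± 0.670 FPKM in WT and 0.464 ± 0.0900 in KO, was the 1 lower gene of the list and reached 1 FPKM in WT only.

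Genes of insulin signalling and glucose transport went both ways. The test covered 19 of the 21 listed genes, 2 of which reached 1 FPKM in 1 genotype only. Among the other 17, 5 were higher in KO, 9 were lower and 3 did not pass. The median difference was -0.49, and -0.10 over members of at least 1 FPKM in both genotypes. Slc2a4, the insulin-regulated glucose transporter GLUT4, stood at 17.0, 17.1 and 17.1 FPKM in WT and 0.133, 0.117 and 0.0720 in KO, where the KO values rest on 9 reads. Slc2a1, the transporter for basal uptake, was 1.93-fold higher, at 36.2 ± 1.57 FPKM in WT and 69.9 ± 2.66 in KO, so the 2 transporters went opposite ways. Akt2, the insulin-responsive kinase of fat cells, was 2.99-fold lower, at 297 ± 5.91 FPKM in WT and 99.3 ± 1.70 in KO, while its relative Akt1 did not pass, at 332 ± 8.08 FPKM in WT and 336 ± 12.2 in KO. Tbc1d4, which holds GLUT4 vesicles back until AKT acts on it, was 2.89-fold lower, and the receptor Insr was 1.68-fold lower. Pik3r1, the regulatory subunit of PI3-kinase and the most abundant of the list, passed as lower, at 375 ± 10.4 FPKM in WT and 349.5 ± 4.83 in KO, a call that was lost with TPM scaling (-0.055 in log2(FPKM + 1)), and its direction turned with quantile normalization, to 0.11. Socs3, which blocks cytokine and insulin receptors, had the largest rise, 12.4-fold, at 3.79, 3.97 and 3.51 FPKM in WT and 46.8, 48.6 and 44.8 in KO, and Grb14, a further receptor inhibitor, was 6.07-fold higher.

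Nuclear genes for mitochondria were lower in KO almost throughout. Of the citrate cycle and pyruvate entry genes, 24 of 26 tested were lower and 2 higher, with a median difference of -1.45. Idh3a, a subunit of the NAD-linked isocitrate dehydrogenase, had the largest fall, 10.6-fold, at 484, 482 and 479.9 FPKM in WT and 46.2, 45.9 and 43.8 in KO. Cs, the citrate synthase, was 4.35-fold lower, at 255 ± 2.50 FPKM in WT and 58.7 ± 0.343 in KO. The 2 exceptions were Idh2, the NADP-linked isocitrate dehydrogenase, at 168 ± 1.96 FPKM in WT and 235 ± 1.86 in KO, and Pdk3, a kinase that shuts pyruvate dehydrogenase, at 8.29 ± 1.30 FPKM in WT and 13.6 ± 0.339 in KO. In mitochondrial fatty acid oxidation 16 of 18 tested genes were lower and 2 did not pass. Acadm, which starts the oxidation of medium-length chains, was the most abundant, at 887 ± 12.9 FPKM in WT and 274 ± 3.35 in KO, and Decr1, needed for unsaturated fatty acids, fell the most, 4.40-fold. Cpt1a and Slc25a20, which bring fatty acids into the mitochondrion, did not pass, with 14.6 ± 0.317 FPKM in WT and 15.2 ± 0.237 in KO for Cpt1a and 21.2 ± 0.668 FPKM in WT and 21.5 ± 0.932 in KO for Slc25a20.

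The respiratory chain showed the same direction in each complex. Lower in KO were 36 of 37 tested genes of complex I (NADH dehydrogenase), 4 of 4 of complex II (succinate dehydrogenase), 9 of 9 of complex III, 12 of 13 of complex IV (cytochrome oxidase) and 16 of 17 of ATP synthase. Over the whole list of nuclear oxidative phosphorylation genes, 80 of 84 tested were lower, 2 of which reached 1 FPKM in WT only, and the median difference was -1.15. Cycs (cytochrome c), the electron carrier between complexes III and IV, stood apart at 941, 957 and 939 FPKM in WT and 52.8, 60.9 and 61.8 in KO, 16.2-fold lower. Atp5b, the catalytic subunit of ATP synthase and the most abundant, was 3.58-fold lower, at 2913 ± 21.1 FPKM in WT and 814 ± 9.83 in KO. Cox7a2l, an assembly factor for supercomplexes, was the 1 higher gene, at 114 ± 0.505 FPKM in WT and 129.9 ± 5.75 in KO. Mitochondrial ribosomal proteins were lower in 74 of 77 tested genes, with Mrpl19 3.84-fold lower. Mrps6, the most abundant of them, was higher, at 209.6 ± 5.09 FPKM in WT and 304 ± 12.8 in KO. The mitochondrial chaperones Hspd1, at 1810.2 ± 25.2 FPKM in WT and 249 ± 4.38 in KO, Hspe1, at 774 ± 39.0 FPKM in WT and 175 ± 9.38 in KO, and Hspa9, at 939.7 ± 2.54 FPKM in WT and 276 ± 2.17 in KO, were lower by 7.28-fold, 4.41-fold and 3.40-fold.

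Transcripts made inside the mitochondrion did not follow the nuclear genes. Of 15 tested, 4 were higher, 2 were lower and 9 did not pass. mt-Co1, the catalytic subunit of cytochrome oxidase, stood at 5215, 5081 and 5020.2 FPKM in WT and 7505, 7761 and 7679 in KO, 1.5-fold higher, and mt-Cytb, the core of complex III, was 1.42-fold higher, a call that was lost with quantile normalization (0.12 in log2(FPKM + 1)). The most abundant, mt-Nd1 of complex I, did not pass, at 7121 ± 189 FPKM in WT and 7043 ± 508 in KO. Several of the others differed between libraries of 1 group. mt-Nd3 passed as lower, at 3031, 1877 and 1894 FPKM in WT and 205, 909 and 904 in KO, with the first KO library far under the other two. It did not pass without that library (-1.28 in log2(FPKM + 1)) or without the first WT library (-1.77). mt-Co2 did not pass, at 2356, 1546 and 532 FPKM in WT and 452, 611 and 767 in KO, with the third WT library under 2 of the KO libraries, and without it mt-Co2 passed as lower, at -1.68.

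In glycolysis the listed enzymes were mostly lower, and members of the same enzyme family went opposite ways. The test covered 20 of the 21 listed genes, 1 of which reached 1 FPKM in 1 genotype only. Among the other 19, 4 were higher in KO, 14 were lower and 1 did not pass. Hk2, the inducible hexokinase, was 7.89-fold lower, at 149 ± 3.44 FPKM in WT and 18.9 ± 0.758 in KO, and Hk1, the housekeeping hexokinase, was 3.41-fold higher, at 24.2 ± 1.13 FPKM in WT and 82.5 ± 3.51 in KO. Eno1 was 2.26-fold lower, at 452 ± 18.1 FPKM in WT and 199.6 ± 3.34 in KO, and Eno2 5.84-fold higher, at 1.53 ± 0.0652 FPKM in WT and 8.96 ± 0.406 in KO. In the phosphofructokinase family Pfkl was 2.92-fold lower and Pfkp was 1.69-fold higher. Pfkfb3, which makes the allosteric activator of that step, had the largest fall, 14.9-fold, at 90.5, 91.4 and 93.4 FPKM in WT and 5.93, 6.32 and 6.18 in KO. Pkm, the last enzyme and the most abundant, was 1.28-fold lower. Gapdh passed as lower, but its values of 28.3, 27.6 and 154 FPKM in WT and 24.7, 9.16 and 9.34 in KO show 1 library in each group far above the other two, and the gene has many processed copies. It did not pass without the third WT library (-1.06 in log2(FPKM + 1)), the second KO library (-1.63) or the third KO library (-1.65).

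Antioxidant genes went both ways. The test covered 34 of the 36 listed genes, and 14 were higher in KO and 20 were lower. The mitochondrial enzymes Sod2 (manganese superoxide dismutase) and Prdx3 (a peroxiredoxin) were 3.29-fold and 3.35-fold lower, at 80.5 ± 0.875 FPKM in WT and 24.5 ± 0.273 in KO for Sod2 and 169 ± 2.26 FPKM in WT and 50.4 ± 0.668 in KO for Prdx3. The extracellular superoxide dismutase Sod3 had the largest rise, 11.2-fold, at 11.7, 11.9 and 12.4 FPKM in WT and 132, 136 and 135 in KO, and Prdx4, the peroxiredoxin of the endoplasmic reticulum, was 2.95-fold higher. Prdx1, the cytosolic enzyme and the most abundant of the list, was 1.94-fold lower, and the membrane enzyme Mgst3 had the largest fall, 4.66-fold. The glutathione transferases Gstm1 and Gstm2 were 5.41-fold and 6.76-fold higher. Iron storage stood out in level. Fth1, the ferritin heavy chain, was among the 10 most abundant messages of KO, at 1492, 1439 and 1421 FPKM in WT and 6273, 6191 and 6616 in KO, 4.38-fold higher. Peroxisomal genes were mostly lower. The test covered 24 of the 26 listed genes, 1 of which reached 1 FPKM in 1 genotype only. Among the other 23, 4 were higher in KO and 19 were lower. Pex11a, which drives peroxisome division, was 9.87-fold lower, at 97.9 ± 1.21 FPKM in WT and 9.92 ± 0.575 in KO.

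Lipid synthesis was lowered unevenly. Of the 22 genes of cholesterol synthesis and its control, all tested, 16 were lower and 6 higher, with a median difference of -0.66. Cyp51, which demethylates lanosterol, was the most abundant and fell the most, 7.51-fold, at 528, 537 and 539 FPKM in WT and 73.7, 69.9 and 69.9 in KO. Lss, one step before it, was 6.25-fold lower and Hmgcs1, at the start of the pathway, 4.52-fold. Hsd17b7 and Ebp, which act after lanosterol, were 2.42-fold and 1.77-fold higher, at 41.9 ± 1.17 FPKM in WT and 101 ± 1.97 in KO for Hsd17b7 and 26.0 ± 1.34 FPKM in WT and 46.0 ± 0.529 in KO for Ebp. The controller Srebf2 was 1.70-fold higher. Idi1 was lower, at 251 ± 88.3 FPKM in WT and 57.5 ± 0.483 in KO, and its WT spread came from the third library. For fatty acid synthesis, the test covered 18 of the 19 listed genes, 2 of which reached 1 FPKM in 1 genotype only. Among the other 16, 4 were higher in KO, 9 were lower and 3 did not pass. Scd1, the desaturase that makes oleate, was 9.97-fold lower, at 536, 542 and 544 FPKM in WT and 53.4, 54.9 and 54.3 in KO. Fasn, the fatty acid synthase, was the most abundant and 2.18-fold lower, at 736 ± 18.9 FPKM in WT and 338 ± 8.11 in KO. Elovl5, which lengthens polyunsaturated chains, was 2.18-fold higher, as were Elovl6 (1.85-fold) and the desaturase Fads1 (1.58-fold). The regulator Srebf1 did not pass, at 114 ± 1.90 FPKM in WT and 118 ± 1.45 in KO.

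**Figure D3:**
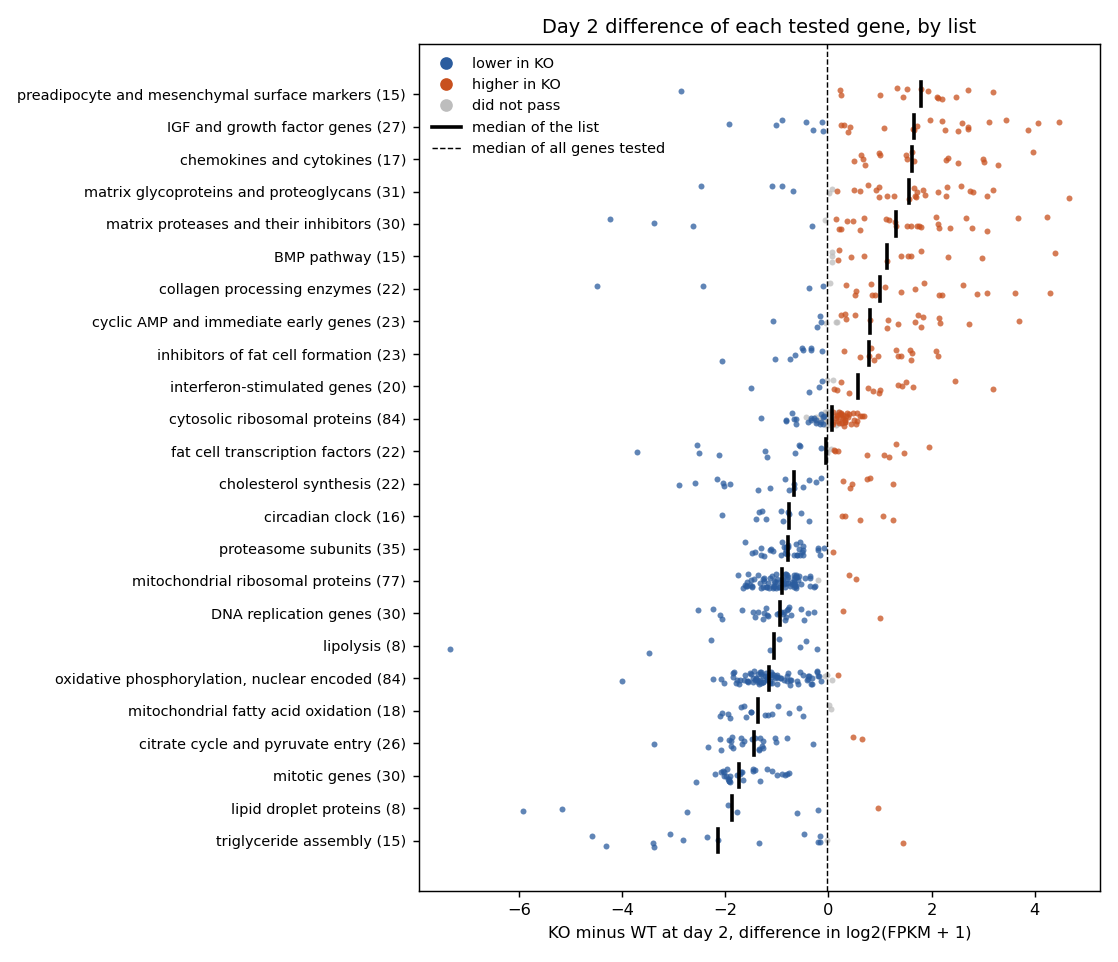
KO minus WT difference at day 2 in log2(FPKM + 1) (x axis) of each tested gene of 24 lists (y axis, number tested in brackets), coloured by call, with a thick bar at the median of the list and a dashed line at the median of all genes tested. Triglyceride assembly, droplet proteins and mitotic genes lie lowest, and preadipocyte markers and growth factors highest. Genes that reached 1 FPKM in 1 genotype only are included.

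Genes of cell division were lower in KO without exception on the mitotic list. All 30 mitotic genes were tested and 30 were lower, with a median difference of -1.74. Aurka, a spindle kinase, fell the most, 6.63-fold, at 43.4, 44.4 and 41.4 FPKM in WT and 6.75, 5.37 and 7.37 in KO. Top2a, the topoisomerase of dividing cells, was the most abundant and 1.81-fold lower, at 196 ± 6.84 FPKM in WT and 108 ± 2.00 in KO. Of the DNA replication genes 28 of 30 tested were lower, led by Rrm2, a ribonucleotide reductase subunit, at 6.10-fold. Pcna, the sliding clamp of replication and repair, stood against the list at 209, 207 and 205 FPKM in WT and 404, 417 and 429 in KO, 2.02-fold higher and the most abundant member. Among the regulators of G1, the test covered 21 of the 22 listed genes, 1 of which reached 1 FPKM in 1 genotype only. Among the other 20, 6 were higher in KO, 12 were lower and 2 did not pass. Cdkn2b, an inhibitor of Cdk4 and Cdk6, had the largest rise, 5.54-fold, at 18.7, 19.4 and 19.4 FPKM in WT and 106, 105 and 107 in KO. Cdkn2c, which acts on the same kinases, had the largest fall, 10.5-fold, at 190.0, 192 and 189 FPKM in WT and 18.3, 18.0 and 18.2 in KO. Cdkn2a was 2.34-fold higher and Cdkn1b 2.04-fold, while Cdkn1a, the most abundant, did not pass, at 271 ± 3.19 FPKM in WT and 263 ± 9.35 in KO. Without the third KO library Cdkn1a passed as lower (-0.075 in log2(FPKM + 1)), and with quantile normalization it stood higher (0.21). Among the cyclins, Ccnd2 and Ccne1 were 2.69-fold and 4.08-fold lower, and Ccnd1 and Ccnd3 were 2.32-fold and 1.66-fold higher. Myc was 2.50-fold lower, at 169 ± 6.39 FPKM in WT and 67.4 ± 0.556 in KO.

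The collagen matrix of fibroblasts was higher in KO, from the chains to the enzymes that process and crosslink them. For collagen chains, the test covered 21 of the 44 listed genes, 1 of which reached 1 FPKM in 1 genotype only. Among the other 20, 15 were higher in KO, 4 were lower and 1 did not pass. Besides the chains of type I collagen, Col3a1 was 4.06-fold higher, at 422 ± 6.75 FPKM in WT and 1711 ± 79.5 in KO, and Col12a1 and Col16a1, which sit on the surface of fibrils, were 4.57-fold and 5.03-fold higher. Col1a1 had the largest rise, 12.6-fold, with 159, 163 and 162 FPKM in WT and 2034, 2057 and 1980.2 in KO. The basement membrane chain Col4a1, the most abundant of the list, was 1.23-fold higher. Col6a3, a chain of type VI collagen, had the largest fall, 4.87-fold, at 809, 832 and 829 FPKM in WT and 171, 174 and 163 in KO. Col6a2 was 1.13-fold lower, a call that was lost with quantile normalization (-0.056 in log2(FPKM + 1)). Of the processing enzymes, the test covered 22 of the 26 listed genes, 4 of which reached 1 FPKM in 1 genotype only. Among the other 18, 15 were higher in KO, 2 were lower and 1 did not pass. Lox, which crosslinks collagen and elastin, stood at 25.5, 25.9 and 25.7 FPKM in the WT libraries and 533, 526 and 508 in the KO libraries, 20.3-fold higher. Plod2, which prepares telopeptide crosslinks, was 6.19-fold higher, Adamts2, which cuts procollagen, 9.12-fold and P4hb, the most abundant, 1.87-fold. Tgm2, a transglutaminase that crosslinks matrix in another way, had the largest fall, at 22.1, 20.8 and 21.9 FPKM in WT and 0, 0 and 0.0294 in KO, where the KO values rest on 1 read.

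Other matrix proteins and their proteases were higher as well. For glycoproteins and proteoglycans, the test covered 31 of the 41 listed genes, 2 of which reached 1 FPKM in 1 genotype only. Among the other 29, 24 were higher in KO, 3 were lower and 2 did not pass. Bgn (biglycan) was the most abundant, at 985, 944 and 955 FPKM in WT and 3569.9, 3479 and 3561 in KO, and Sparc, a collagen-binding protein, was 4.92-fold higher, at 466 ± 16.7 FPKM in WT and 2291 ± 20.7 in KO. Fn1 (fibronectin), at 246 ± 2.09 FPKM in WT and 1459.8 ± 36.3 in KO, was 5.94-fold higher and Fbn1 (fibrillin), at 5.69 ± 0.187 FPKM in WT and 59.8 ± 1.60 in KO, 10.5-fold. Fbln1 (fibulin), which reached 1 FPKM in WT only, had the largest fall, at 4.81 ± 0.204 FPKM in WT and 0.0523 ± 0.0239 in KO. The basement membrane linker Nid1 was 1.86-fold lower. For matrix proteases and their inhibitors, the test covered 30 of the 80 listed genes, 9 of which reached 1 FPKM in 1 genotype only. Among the other 21, 18 were higher in KO, 2 were lower and 1 did not pass. The 3 parts of the Mmp2 activation system were high together. Mmp2, a gelatinase, stood at 264, 259 and 259.9 FPKM in WT and 3329, 3320.3 and 3297 in KO, its activator Mmp14 at 109.9 ± 2.44 FPKM in WT and 757 ± 23.1 in KO and Timp2, which links both, at 38.0, 37.5 and 37.6 FPKM in WT and 728, 727 and 713 in KO. Timp2 had the largest rise, 19.2-fold, followed by Mmp2 with 12.7-fold. Adamts15, at 18.3 ± 0.989 FPKM in WT and 0.0259 ± 0.0225 in KO, had the largest fall and reached 1 FPKM in WT only. Adam12, a protease of early fat cell formation, was 10.8-fold lower, at 217 ± 5.24 FPKM in WT and 20.1 ± 0.646 in KO.

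Secreted growth signals and their receptors were mostly higher in KO. For growth factors, the test covered 27 of the 36 listed genes, 2 of which reached 1 FPKM in 1 genotype only. Among the other 25, 18 were higher in KO and 7 were lower. Igf1, which works with insulin on fat cell formation, was 14.5-fold higher, at 2.86, 2.89 and 2.50 FPKM in WT and 39.5, 42.0 and 38.2 in KO. The lymphatic factors Vegfc and Vegfd were 19.5-fold and 25.8-fold higher, Fgf7 11.9-fold and Hgf 8.61-fold, while Met, the receptor of Hgf, had the largest fall, 4.49-fold, at 17.9 ± 0.0980 FPKM in WT and 3.99 ± 0.319 in KO. The receptors Pdgfrb and Egfr were 8.30-fold and 4.18-fold higher. Igfbp5, an IGF carrier, stood at 0.00315 ± 0.00546 FPKM in WT and 15.6 ± 0.251 in KO, where the WT value rests on 1 read. Fgfr1, the most abundant, was 1.19-fold higher. BMP genes that passed were all higher. The test covered 15 of the 29 listed genes, 1 of which reached 1 FPKM in 1 genotype only. Among the other 14, 11 were higher in KO and 3 did not pass. Fstl1, a secreted BMP antagonist, was the most abundant, at 312, 302 and 303 FPKM in WT and 2413, 2416 and 2432 in KO, 7.92-fold higher. Grem1, a further antagonist, was 59.1-fold higher, at 0.526 ± 0.0693 FPKM in WT and 31.1 ± 0.899 in KO. It reached 1 FPKM in KO only and so had to differ. The target genes Id4 and Id2 were 5.96-fold and 3.35-fold higher, and the target Id3 did not pass, at 165 ± 7.94 FPKM in WT and 173 ± 7.71 in KO.

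For Wnt genes, the test covered 18 of the 59 listed genes, 2 of which reached 1 FPKM in 1 genotype only. Among the other 16, 9 were higher in KO, 6 were lower and 1 did not pass. Receptors were higher, with Fzd2 3.56-fold, Fzd7 3.53-fold and Lrp5 2.99-fold, and so was the ligand Wnt5a, at 7.05 ± 0.116 FPKM in WT and 22 ± 1.49 in KO. The nuclear factors Lef1, with the largest fall of 2.65-fold, Tcf7l1 and Tcf7l2 were lower, the latter pair by 1.58-fold and 1.28-fold. In the TGF-beta pathway, the test covered 16 of the 19 listed genes, 1 of which reached 1 FPKM in 1 genotype only. Among the other 15, 8 were higher in KO and 7 were lower. Tgfbr2 had the largest rise, 3.01-fold, and its partner receptor Tgfbr1 was 2.08-fold lower. The ligand Tgfb1 was 2.2-fold higher. Tgfb2, which reached 1 FPKM in WT only, had the largest fall, at 4.16 ± 0.386 FPKM in WT and 0.923 ± 0.310 in KO. Tgfbr3, a coreceptor and the most abundant, was 1.38-fold higher.

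Signals to immune cells were higher in KO. Among chemokines and cytokines, the test covered 17 of the 66 listed genes, 6 of which reached 1 FPKM in 1 genotype only. Among the other 11, 11 were higher in KO. Ccl7, which draws monocytes, had the largest rise, 22.5-fold, at 2.21, 1.89 and 2.13 FPKM in WT and 45, 45.8 and 49.5 in KO. Ccl2, whose mean reached 1 FPKM in KO only, stood at 0.408, 1.38 and 0.764 FPKM in WT and 16.3, 16.3 and 17.3 in KO. Csf1, the macrophage growth factor, was 8.76-fold higher, at 9.05 ± 0.726 FPKM in WT and 79.4 ± 1.40 in KO, and Cxcl12, the most abundant, 2.89-fold. The macrophage markers were low in both genotypes, and their summed level was 6.52 to 8.31 FPKM in WT and 16.6 to 17.1 in KO. Of the 9 listed, 3 reached the minimum. Cd14 was 3.86-fold higher, at 1.19 ± 0.0667 FPKM in WT and 4.60 ± 0.350 in KO, Aif1, which reached 1 FPKM in KO only, stood at 0.110 ± 0.0802 FPKM in WT and 3.06 ± 0.502 in KO, and Cd68 did not pass, at 5.98 ± 0.852 FPKM in WT and 6.09 ± 0.996 in KO. Each of the defining markers Adgre1, Ptprc, Csf1r and Itgam stayed under 1 FPKM. The part of such cells in the chemokine values was not tested. The light chain of MHC class I, B2m, was 5.86-fold higher, at 123.5, 119.9 and 119 FPKM in WT and 684, 694 and 747 in KO, and its partner H2-D1, one of a family of similar genes, 4.70-fold. The test covered 14 of the 22 listed genes, 2 of which reached 1 FPKM in 1 genotype only. Among the other 12, 8 were higher in KO, 3 were lower and 1 did not pass. Calr, a chaperone of class I assembly, was the most abundant, 1.36-fold higher, and Psme2, a proteasome activator, had the largest fall, 2.21-fold. Interferon-stimulated genes were mixed. The test covered 20 of the 43 listed genes, 4 of which reached 1 FPKM in 1 genotype only. Among the other 16, 10 were higher in KO, 4 were lower and 2 did not pass. Bst2, which tethers budding virus, had the largest rise, 10.0-fold, at 9.46 ± 0.738 FPKM in WT and 94.6 ± 5.06 in KO, and Ifi27, the most abundant, was 1.08-fold higher.

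Both cyclooxygenases were higher, Ptgs2 with the largest rise, 14.0-fold, at 1.60 ± 0.248 FPKM in WT and 22.5 ± 0.500 in KO, and Ptgs1, the most abundant, at 26.3, 25.6 and 29.4 FPKM in WT and 201, 201 and 194 in KO, 7.33-fold higher. Prostacyclin synthase, Ptgis, had the largest fall, 10.0-fold, at 10.5 ± 1.54 FPKM in WT and 1.05 ± 0.0286 in KO, and Ptges, a prostaglandin E synthase, was 1.98-fold higher. Of 11 tested genes of 25 listed, 6 were higher and 5 lower. Indometacin, part of the cocktail, is known to block both cyclooxygenases. For complement and acute phase genes, the test covered 16 of the 29 listed genes, 5 of which reached 1 FPKM in 1 genotype only. Among the other 11, 7 were higher in KO, 3 were lower and 1 did not pass. C3, the central complement protein and the most abundant, was 1.61-fold higher, at 727 ± 4.97 FPKM in WT and 1173 ± 11.7 in KO, and the first-component protease C1s1 was 22.6-fold higher. Cfd (adipsin), a fat cell product, had the largest fall, at 4.62 ± 0.0503 FPKM in WT and 0.189 ± 0.147 in KO. It reached 1 FPKM in WT only.

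Genes that answer the components of the cocktail were not uniformly low in KO. For glucocorticoid response genes, the direct response to dexamethasone, the test covered 17 of the 18 listed genes, 1 of which reached 1 FPKM in 1 genotype only. Among the other 16, 9 were higher in KO and 7 were lower. Tsc22d3 (GILZ), a well-known target, was 5.59-fold higher, at 115, 112 and 115 FPKM in WT and 650.3, 622 and 638 in KO, and Dusp1, a MAP kinase phosphatase, had the largest rise, 13.4-fold, at 27.1, 29.2 and 27.5 FPKM in WT and 376, 374 and 369.9 in KO. Fkbp5, a further target, went the other way, at 778, 779 and 771 FPKM in WT and 452, 438 and 447 in KO, 1.74-fold lower. Zbtb16 had the largest fall, 16.8-fold, at 13.3 ± 0.552 FPKM in WT and 0.791 ± 0.117 in KO, but reached 1 FPKM in WT only. Hsd11b1, which regenerates active glucocorticoid, was 8.52-fold lower. The receptor Nr3c1 was 1.14-fold higher, and Mt1 (metallothionein), the most abundant, 1.46-fold. Genes induced through cyclic AMP, which isobutyl-methylxanthine raises, were mostly higher. The test covered 23 of the 26 listed genes, 3 of which reached 1 FPKM in 1 genotype only. Among the other 20, 14 were higher in KO, 3 were lower and 3 did not pass. The most abundant, Junb, was 2.24-fold higher, Jun 4.80-fold and Nr4a1 3.44-fold, the last at 20.3 ± 0.822 FPKM in WT and 69.9 ± 1.64 in KO. Atf3, which reached 1 FPKM in WT only, had the largest fall, at 2.68 ± 0.348 FPKM in WT and 0.755 ± 0.214 in KO. Pde4b did not pass, at 41.7 ± 1.48 FPKM in WT and 40.2 ± 1.52 in KO.

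Genes of ATF4 and the unfolded protein response went both ways. All 29 listed genes were tested, and 12 were higher in KO, 15 were lower and 2 did not pass. Among the lower genes were Atf4 itself, 2.04-fold, and its targets of serine, asparagine and one-carbon synthesis. These included Psat1, at 476, 476 and 473 FPKM in WT and 112, 116 and 119.7 in KO, Asns, at 398 ± 2.34 FPKM in WT and 100 ± 1.14 in KO, Phgdh, 3.16-fold lower, and Psph, 5.22-fold lower, and Chac1, which degrades glutathione, had the largest fall, 6.12-fold. Among the higher genes were chaperones of the endoplasmic reticulum, which fold secreted proteins. Hspa5 (BiP), the most abundant, stood at 755, 739.5 and 746 FPKM in WT and 1664, 1614 and 1612 in KO, 2.18-fold higher, Hsp90b1 was 2.02-fold higher, Manf 3.32-fold and Sdf2l1, with the largest rise, 4.00-fold. In the cytosol, 8 subunits of the chaperonin CCT were tested and 8 were lower, by up to 2.50-fold for Cct3, while the stress-inducible Hspa1b, Dnajb1 and Hsph1 were higher, by 1.78-fold, 1.48-fold and 1.48-fold. Hsp90ab1, the most abundant chaperone, was 1.26-fold lower.

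Protein turnover and synthesis genes went separate ways. Of 35 tested proteasome subunits of 39 listed, 34 were lower in KO, with a median difference of -0.79. Psma5 fell the most, 3.10-fold, at 281, 278 and 282 FPKM in WT and 87.7, 91.8 and 91.9 in KO. Psma1, the most abundant, was 1.06-fold lower, a call that was lost with TPM scaling (-0.045 in log2(FPKM + 1)). Psmc5 was the 1 higher subunit, 1.06-fold, a call that was lost without the second KO library (0.059) or the third WT library (0.061) and with median-of-ratios scaling (0.063). Cytosolic ribosomal proteins showed no common direction. Of 84 tested, 33 were higher, 19 were lower and 32 did not pass, with a median difference of 0.06. Many of them share reads with processed copies and their single values are uncertain. Rplp1, the most abundant, was 1.18-fold higher, a call that was lost with quantile normalization (0.042 in log2(FPKM + 1)). The elongation factor Eef2, among the 10 most abundant messages in KO, was 1.49-fold higher.

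The genes of m6A, the mark the series is about, shifted by small amounts. All 27 were tested, 19 were lower and 5 higher, with a median difference of -0.33. Of the writers, Mettl3, the catalytic subunit, stood at 18.5, 18.0 and 17.4 FPKM in WT and 14.3, 12.9 and 13.2 in KO, 1.33-fold lower, and its partner Mettl14 at 7.25, 7.10 and 6.98 FPKM in WT and 3.89, 3.79 and 4.28 in KO, 1.78-fold lower. Both groups were separate in either gene, as they were in 82.3% of all genes tested. Of the erasers, Fto was 1.53-fold higher, at 23.9, 23.5 and 23.4 FPKM in WT and 35.5, 36.1 and 36.6 in KO, and Alkbh5 1.29-fold higher, at 29.5 ± 1.2 FPKM in WT and 37.9 ± 0.430 in KO. The reader Ythdf2, which speeds decay of marked mRNA, was 1.14-fold lower, at 23.5, 24.5 and 25.4 FPKM in WT and 22.4, 22.5 and 19.8 in KO, the lowest WT value being just above the highest KO value, and the call was lost with TPM scaling (-0.14 in log2(FPKM + 1)). Mettl5, which marks ribosomal RNA, had the largest fall, 2.37-fold, Rbm15b, a targeting protein of the writer, the largest rise, 1.88-fold, and the most abundant, Hnrnpa2b1, was 1.62-fold lower. Partners of Zfp217 in repressor complexes mostly differed by little. All 21 were tested, 11 were higher and 8 lower, with a median difference of 0.11. Kdm1a, the demethylase, was 1.07-fold lower as deposited, a call that was lost with TPM scaling (-0.049 in log2(FPKM + 1)) and with quantile normalization, which turned the sign (0.026, not past the threshold). Ctbp1 was 1.16-fold lower, a call that was lost with quantile normalization (-0.068). Gse1 had the largest rise, 3.25-fold, at 23 ± 0.354 FPKM in WT and 74.7 ± 3.85 in KO, Zfp516 the largest fall, 1.69-fold, and Ehmt2, the most abundant, was 1.10-fold higher.

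Clock genes, nuclear receptors, Hox genes and imprinted genes differed in ways that set single members apart. Of 16 tested clock genes of 20 listed, 11 were lower and 5 higher. Arntl, the core activator, had the largest rise, 2.62-fold, at 4.88, 5.76 and 5.28 FPKM in WT and 14.3, 13.7 and 13.7 in KO, and its targets Dbp, at 14.9, 15.5 and 15.3 FPKM in WT and 3.09, 2.71 and 2.81 in KO, and Nr1d1 were 5.31-fold and 2.84-fold lower. Tef, a relative of Dbp and the most abundant, was 2.35-fold lower. Among nuclear receptors, Vdr, the vitamin D receptor, had the largest rise, 11.7-fold, at 13.9, 13.6 and 14.9 FPKM in WT and 169, 165 and 161 in KO, and Thra and Rarg were 3.47-fold and 3.67-fold higher. Of 24 tested receptors, 13 were higher and 8 lower. In the Hox clusters the tested HoxD genes were lower, Hoxd8, the most abundant, by 4.11-fold, at 136, 138 and 144 FPKM in WT and 35.4, 33.6 and 32.9 in KO, and Hoxd9 and Hoxd4 by 3.57-fold and 4.48-fold. HoxA genes were split, with Hoxa2 2.88-fold higher, Hoxa4 2.30-fold lower and Hoxa7 not passing, at 5.48 ± 0.466 FPKM in WT and 5.26 ± 0.0818 in KO. For imprinted genes, the test covered 17 of the 32 listed genes, 1 of which reached 1 FPKM in 1 genotype only. Among the other 16, 10 were higher in KO, 4 were lower and 2 did not pass. Besides Ndn and Dlk1, Igf2r, the most abundant, was 2.12-fold higher and Peg3 2.99-fold, while Peg10 had the largest fall, 4.57-fold, at 37.5 ± 1.24 FPKM in WT and 8.20 ± 0.280 in KO.

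Some genes were found in 1 genotype only. At 0 in all 3 libraries of a genotype were 5 tested genes in KO and 8 in WT, most of them predicted genes or microRNA genes. Kcnj2, an inward rectifier potassium channel, was at 0 in WT and 2.2 ± 0.160 FPKM in KO, at least 256-fold higher. Olfm3 was at 0 in WT and 2.07 ± 0.317 FPKM in KO, at least 136-fold higher. Both were chosen after their values were seen.

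Differences were spread unevenly over the chromosomes. Relative to the median of all genes tested, the median KO minus WT difference of the 669 genes on chromosome 8 was 0.42 in log2(FPKM + 1), and 61.6% of them were higher in KO, beside 39.9% of all genes. Genes on chromosomes 6 and 12 had medians of -0.31 and -0.29, with 58.5% and 57.6% lower, beside 41.7% of all genes. The X chromosome stood at 0.25 and chromosome 2, where Zfp217 lies, at -0.22. At day 0, in other libraries, the same chromosomes stood at 0.42 (8), -0.34 (6), -0.21 (12), 0.11 (X) and -0.15 (2). The shift on chromosomes 8 and 6 was thus of about the same size on both days. Of the 12 largest rises Npy1r, Cdh13 and Lpcat2 lie on chromosome 8, beside 669 of all 12664 genes tested. They were picked from the same day 2 values, and Npy1r and Lpcat2 reached 1 FPKM in KO only.

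**Figure D4:**
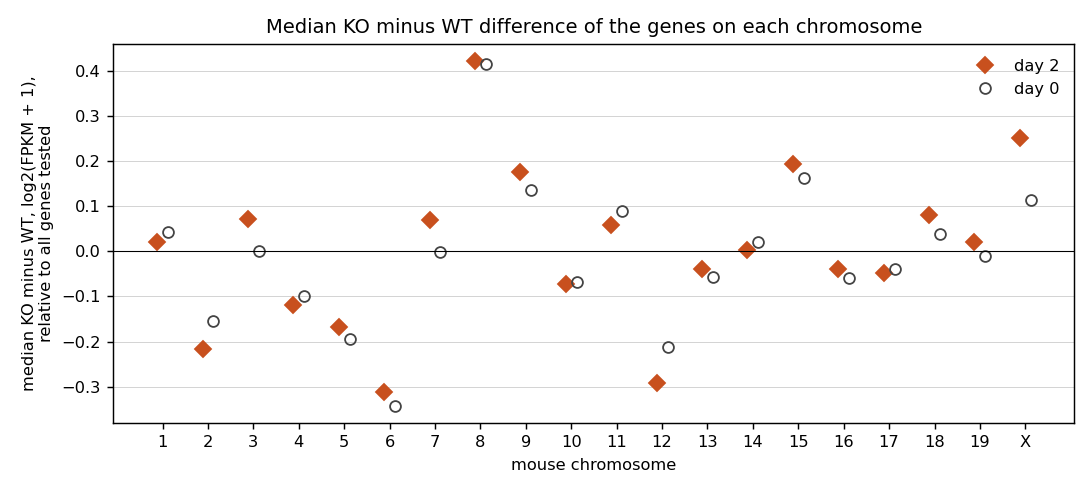
Median KO minus WT difference in log2(FPKM + 1) of the genes on each mouse chromosome (x axis), relative to the median of all genes tested (y axis), at day 2 (filled diamonds) and day 0 (open circles). Chromosome 8 lies highest on both days and chromosome 6 lowest.

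Whether the difference at day 2 was already there at day 0 was asked by testing the change in the difference. The KO minus WT difference at day 2 differed from that at day 0 in 9304 genes (73.5%) by the interaction term of the same limma fit, being higher (more toward KO) at day 2 in 5120 (40.4%) and lower in 4184 (33.0%). That balance depended on the scaling, with 4697 and 4507 genes under TPM scaling and 4506 and 4796 under quantile normalization. At day 0 itself 10334 of the same genes passed (81.6%), by coincidence the same number. Of the 10334 genes called at day 2, 65.0% were called in the same direction at day 0 and 20.3% in the opposite one, and 1514 were called at day 2 only. Fat storage genes also passed at day 0 in both directions, with medians other than at day 2. Over all genes tested, 37.4% were higher in KO at day 0 and 44.2% lower (median -0.066), so passing in itself is the usual case. At day 0, 3 of 13 tested uptake genes were higher in KO and 7 lower (median -0.31), 6 of 15 triglyceride genes were higher and 7 lower (median -0.075), and 6 of 8 lipolysis genes were higher and 1 lower (median 0.51). Fabp4 did not pass at day 0. It was at 1.18 ± 0.132 FPKM in WT and 1.96 ± 1.39 in KO on day 0, and the interaction was -8.39 in log2(FPKM + 1). All 8 tested lipolysis genes, 1 of which reached 1 FPKM in WT only, had a lower difference at day 2 than at day 0. So did 11 of 15 tested triglyceride genes, and 2 of the 15 reached 1 FPKM in 1 genotype only. For nuclear genes of the respiratory chain the median difference was already -0.35 at day 0 and the interaction was lower for 79 of 84 genes. The 84 include 2 that reached 1 FPKM in 1 genotype only. Cell division genes narrowed. Their median difference was -3.91 at day 0 and -1.74 at day 2, and the interaction was higher for 30 of 30. Cholesterol synthesis likewise moved from -2.47 to -0.66, and cytosolic ribosomal proteins from -0.57 to 0.06.

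Other groups changed side between the days. Contractile genes were lower in KO at day 0 in 17 of 18 tested genes and higher at day 2 in 13, and the interaction was higher for 18 of 18. Acta2, the smooth muscle actin, was at 541 ± 8.30 FPKM in WT and 74.0 ± 1.21 in KO on day 0 and at 2.67, 2.22 and 2.73 FPKM in WT and 19.2, 18.8 and 20.8 in KO on day 2, so the order of the genotypes turned and both means were lower at day 2. The order turned for Vdr too, which stood at 72.1 ± 4.34 FPKM in WT and 14.2 ± 0.537 in KO on day 0. On day 2 it was 11.7-fold higher in KO, at 14.1 ± 0.706 FPKM in WT and 165 ± 3.58 in KO. Unlike Acta2, its KO mean was higher at day 2 than at day 0. Interferon-stimulated genes narrowed. At day 0 19 of 20 tested were higher in KO, with a median of 1.5, beside 0.58 at day 2 (0.21 over members of at least 5 FPKM), and the interaction was lower for 15. Of the 20, 4 reached 1 FPKM at day 2 in 1 genotype only. Collagen chains were higher on both days but less so at day 2, with medians of 1.43 and 0.40 (the latter 0.07 when no minimum level was set). Of 21 tested chains, 1 of which reached 1 FPKM at day 2 in 1 genotype only, 14 had a lower interaction. Col1a1 was an exception, at 3536 ± 70.4 FPKM in WT and 9746 ± 249 in KO on day 0 and with an interaction of 2.18.

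**Figure D5:**
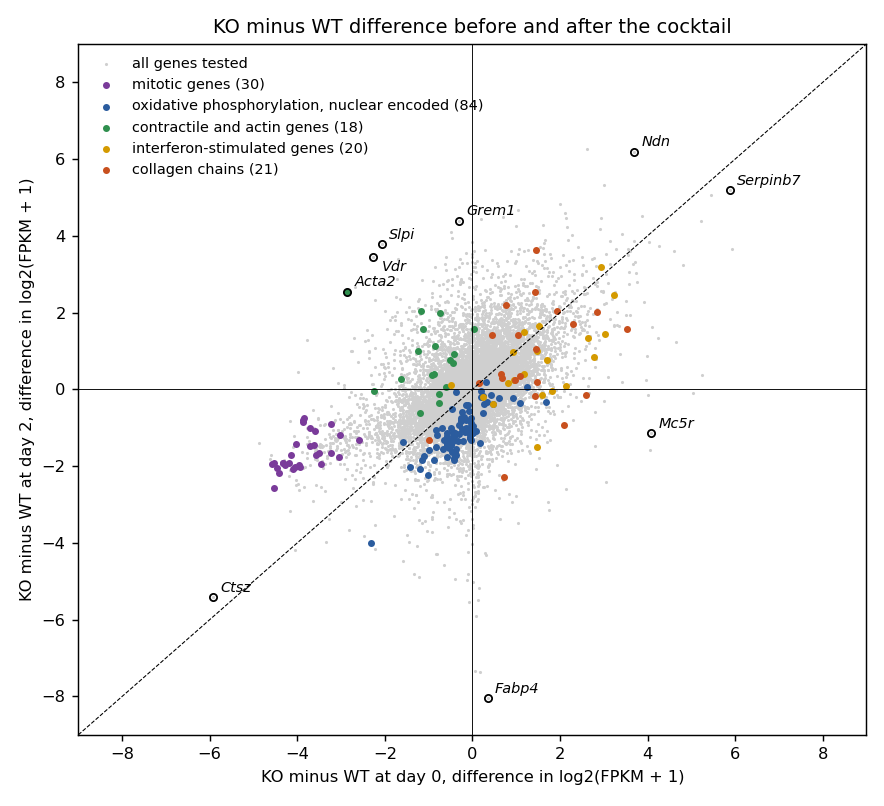
KO minus WT difference in log2(FPKM + 1) at day 0 (x axis) and day 2 (y axis) of each tested gene, with 5 lists in colour and the dashed line marking equal differences. Mitotic genes lie above the line, respiratory chain genes below it and contractile genes at the upper left, and Fabp4 lies far below at a day 0 difference near 0.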

How the data were processed

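RNA-seq was analysed in 12 libraries, 3 per genotype and day, and the MeRIP samples were not used here. The authors deposited FPKM values per gene and library, which depend on the sum of each library. The submitters' processing notes name, among others, TopHat2 (2.0.12), HTSeq (0.6.1), Bowtie2 (2.2.3) and the build mm10, with no order or role. The sources used here give neither annotation nor strand setting, and the library kit named in the labels does not mark strand, so overlapping genes cannot be told apart. Whole reads were recovered from the FPKM steps for 30916 of 30916 genes above 0 (within 0.001 reads), giving 18075127 to 23117459 reads per library.

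Genes that averaged 1 FPKM or more in the 6 libraries of day 2 were fitted with limma (3.58.1, R 4.3.3, variance trend) on log2(FPKM + 1), which understates the change of low genes, with 1 mean for each of the 4 groups (8 residual degrees of freedom). Contrasts were KO minus WT at day 2 and its change from day 0, two-sided, with Benjamini-Hochberg adjustment. The fit was also run on simulated reads in which few genes differed between groups. Most genes passed in the real data, so that run does not check the counts of genes called here. Values are mean ± SD (n = 3), and folds are ratios of mean FPKM, given only where the lower group held more than 3 reads. Genes named are Zfp217, the 12 largest rises and falls without overlap between groups (predicted genes, clone names and pseudogenes left out), the 8 largest interactions each way, and from each of 53 lists its most abundant member, its largest rise and fall and members with a known role; some genes under this rule are not reported here. Members and lists were chosen with earlier results of these data known. Alternatives changed pseudocount, minimum, scaling, variance model, samples, replicate block and left-out libraries.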

Additional observations from a re-analysis of the deposited data

Results flagged for a closer look

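The genotype difference itself differed between the days in 9304 genes by the limma interaction term. Its largest changes to the lower side were in fat cell genes, with interactions of -8.39 for Fabp4, -7.54 for Cd36, -7.39 for G0s2, -5.99 for Plin1, -5.61 for Retn, -5.47 for Mrap and -5.30 for Cidec, all in log2(FPKM + 1). Mc5r, a melanocortin receptor, had an interaction of -5.23 with another course, from 0.323 FPKM in WT and 21.1 in KO on day 0 to 69.7 in WT and 30.9 in KO on day 2. At day 0 its WT mean was near 0 while KO already held it.

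Each of the largest changes to the higher side except that of Errfi1 was in a gene whose WT mean was lower at day 2 than at day 0 and above KO at day 0. Slpi, a protease inhibitor, had an interaction of 5.85, from 27.6 FPKM in WT and 5.86 in KO on day 0 to 0.807 in WT and 23.5 in KO on day 2. The others named here were Vdr (5.72), Acta2 (5.40), Ccn1 (5.35), a matrix protein and YAP target, Anxa3 (5.09), an annexin, and Il1rl1 (5.05), the interleukin-33 receptor. Il1rl1 went from 108 FPKM in WT and 7.03 in KO on day 0 to 0.605 in WT and 2.90 in KO on day 2. Grem1, with 4.69, went from 68.3 FPKM in WT and 55.3 in KO on day 0 to 0.526 in WT and 31.1 in KO on day 2, a drop of the WT mean to nearly nothing. Errfi1 (4.61), a feedback inhibitor of the EGF receptor, had higher means at day 2 in both genotypes, from 25.7 FPKM in WT and 7.07 in KO on day 0 to 41.4 in WT and 312 in KO on day 2.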

How the results depend on the processing

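The counts of genes that passed stayed within 1.5 times under each of the other pseudocount, minimum, scaling, variance, sample and recovered-read settings. A minimum change of 2-fold left 3160 genes at day 2 (1643 higher, 1517 lower) and 2660 for the interaction (1578 higher, 1082 lower). Leaving out 1 day 2 library at a time gave 10074 to 10149 genes at day 2 (4920 to 4984 higher, 5152 to 5194 lower) and 9088 to 9149 for the interaction (4988 to 5054 higher, 4083 to 4124 lower). The replicate block gave 10299 and 9222. The replicate numbers were not taken as pairs in the main fit. The deviations of same-numbered libraries correlated at -0.011, -0.0066 and -0.057. These values show no shared replicate effect but cannot show whether same-numbered samples were handled together. Without the third WT library of day 0, an alternative chosen after seeing the data, 10323 and 9095 genes passed. A fit to the 6 day 2 libraries alone, without the spread of day 0, gave 10213 genes at day 2. With no minimum level, 12990 of 30916 genes passed at day 2, a share of 42.0% beside 81.6% with the minimum.

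Scalings moved the median of all genes by at most 0.041. They moved the balance of higher and lower genes, from 5050 and 5284 to 5300 and 4998 at day 2 with TPM scaling, and from 5120 and 4184 to 4506 and 4796 for the interaction with quantile normalization. Quantile normalization turned the direction of Cdkn1a (0.21), Kdm1a (0.026), Npc2 (0.065), Pik3r1 (0.11) and Cebpb (0.23) in log2(FPKM + 1). Calls were lost with TPM scaling for Kdm1a (-0.049), Pik3r1 (-0.055), Psma1 (-0.045) and Ythdf2 (-0.14), with median-of-ratios scaling for Psmc5 (0.063), with quantile normalization for Col6a2 (-0.056), Ctbp1 (-0.068), Rplp1 (0.042) and mt-Cytb (0.12) and with no minimum for Gapdh (-1.86) and mt-Nd3 (-2.0). Genes that had not passed did so with TPM scaling for Cpt1a (0.099) and Srebf1 (0.094) and with quantile normalization for Akt1 (0.25), Apln (-0.22), Id3 (0.26), Srebf1 (0.19) and mt-Nd1 (-0.43). The cause of these changes was not tested. Several list medians moved with the minimum or the scale. That of secreted fat cell proteins went from -1.64 to -3.31 with a minimum of 5 FPKM and -3.01 with voom on recovered reads, and that of the 2 tested pericyte markers from -0.15 to 2.54 with a minimum in each genotype, which left 1. Without a minimum the median fell from 0.40 to 0.07 for collagen chains, from 1.13 to 0.18 for BMP genes, from 1.66 to 0.40 for growth factors, from 1.61 to 0.07 for chemokines, from 1.30 to 0.12 for matrix proteases and from 1.55 to 0.95 for glycoproteins, and it moved from -1.87 to -0.41 for droplet proteins and from -2.14 to -1.34 for triglyceride assembly. With a minimum of 5 FPKM that of interferon-stimulated genes was 0.21 in place of 0.58. At this depth 3 reads over a group bound what a gene at 0 can hold, and this covers counting error only.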

Other observations

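For p53 targets, the test covered 24 of the 27 listed genes, 1 of which reached 1 FPKM in 1 genotype only. Among the other 23, 17 were higher in KO, 5 were lower and 1 did not pass. Eda2r, a death receptor of the TNF family, had the largest rise, 15.0-fold, at 3.70, 4.10 and 3.71 FPKM in WT and 58.6, 57.3 and 56.9 in KO. The cyclin Ccng1 was 2.58-fold higher, the kinase Plk2 4.28-fold and the death receptor Fas 8.11-fold. Tigar, which diverts sugar from glycolysis, had the largest fall, 5.81-fold, at 14.3 ± 0.638 FPKM in WT and 2.46 ± 0.470 in KO, and Mdm2, the p53 ubiquitin ligase and the most abundant, was 1.21-fold lower, at 4274 ± 40.5 FPKM in WT and 3519 ± 51.3 in KO. For lysosomal genes, the test covered 39 of the 57 listed genes, 3 of which reached 1 FPKM in 1 genotype only. Among the other 36, 21 were higher in KO, 11 were lower and 4 did not pass. Several hydrolases were higher, among them Hexa (4.67-fold), Ctsk (4.66-fold), Gaa (2.77-fold) and Ctsl (2.47-fold), while Tfeb, the regulator of lysosome genes, was 3.12-fold lower, at 42.6 ± 0.235 FPKM in WT and 13.7 ± 1.22 in KO. Ctsh, which reached 1 FPKM in KO only, had the largest rise, at 0.0772 ± 0.0689 FPKM in WT and 4.52 ± 0.618 in KO. Npc2, a cholesterol carrier and the most abundant, was 1.14-fold lower.

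For contractile and actin genes, the test covered 18 of the 25 listed genes, and 13 were higher in KO, 3 were lower and 2 did not pass. Cald1 (caldesmon) was 4.16-fold higher, at 82.7, 85.3 and 87.7 FPKM in WT and 361, 353 and 349 in KO, and Flna (filamin), the most abundant, 2.01-fold. Mrtfa, the coactivator of Srf, was 3.13-fold higher, and Vcl (vinculin) had the largest fall, 1.56-fold. For YAP and TAZ with their targets, the test covered 18 of the 21 listed genes, 1 of which reached 1 FPKM in 1 genotype only. Among the other 17, 11 were higher in KO, 5 were lower and 1 did not pass. The receptor tyrosine kinase Axl was 7.53-fold higher, at 49.1, 50.6 and 51.2 FPKM in WT and 377, 384 and 374 in KO, Tead2 was 4.20-fold higher and Amotl2 had the largest fall, 1.89-fold. The coactivators differed in direction, with Yap1 1.25-fold higher and Wwtr1 (TAZ) 1.71-fold lower. For integrins and laminins, the test covered 12 of the 37 listed genes, 1 of which reached 1 FPKM in 1 genotype only. Among the other 11, 6 were higher in KO, 4 were lower and 1 did not pass. Lamb2 was 6.66-fold higher, at 50.9 ± 3.78 FPKM in WT and 339 ± 8.81 in KO, and its relative Lamb1 2.1-fold lower, at 654 ± 11.1 FPKM in WT and 312 ± 3.86 in KO, while Itga7 had the largest fall, 11.8-fold. For the DNA methylation machinery, the test covered 15 of the 18 listed genes, and 6 were higher in KO, 7 were lower and 2 did not pass. Uhrf1, which brings Dnmt1 to new DNA, was 3.68-fold lower, Zfp57, a guard of imprints, 4.26-fold higher, at 3.44 ± 0.190 FPKM in WT and 14.6 ± 0.975 in KO, and Trim28, its partner and the most abundant, 1.10-fold higher.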
